A study of Mus musculus with 2 samples.

Results

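The macrophage growth factor axis and antigen presentation were followed through 10 genes across the cells of the newborn mouse kidney. These are the ligands Csf1 and Il34, their receptor Csf1r, the macrophage genes Cx3cr1, Mrc1, F13a1 and Pf4, and the class II genes Cd74, H2-Aa and H2-Ab1. The 10 members were taken by symbol from the 32285 genes of the count matrices, by a rule that uses no measured value, although they were proposed with earlier results of these data known. All 10 passed the filter on low counts.

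The study holds 2 single-cell RNA sequencing libraries of whole kidney from mice of postnatal day 0. Both carry the label Rbpj c/+ ; Foxd1cre/+, read here as 1 conditional copy of Rbpj, the DNA-binding partner of the Notch receptors, with a Cre recombinase driven by Foxd1, a gene of the renal stromal progenitors. They therefore form 1 group with n = 2, and the data hold no comparison between genotypes. The labels do not say whether the libraries came from separate animals, so the spread between them may be technical, and replicates 1 and 2 are names only.

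CSF1 and IL-34 are secreted proteins that bind the same receptor, CSF1R, on which tissue macrophages depend for survival and renewal. Macrophages of fetal and newborn organs carry scavenger receptors such as the mannose receptor MRC1, and many of them gain major histocompatibility complex (MHC) class II only after birth. Class II molecules are pairs of an alpha and a beta chain that are assembled with the invariant chain CD74 and present peptides to CD4+ T cells, and their transcription is governed by the coactivator CIITA.

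A barcode counted as a cell from 3000 unique molecular identifiers (UMIs) and 500 genes upwards, unless over 20% of its UMIs were mitochondrial, which left 5529 cells in replicate 1 and 4206 in replicate 2, with medians of 15016 and 20007.5 UMIs. The libraries totalled 200331687 and 173166168 UMIs, and 6 kept barcodes, none of them a macrophage, occurred in both. Cells were assigned to gates from marker panels that contain no member. Macrophages had at least 2 C1qa UMIs and at least 2 of C1qb, C1qc, Tyrobp and Fcer1g, and the gate held 108 cells in replicate 1 (1.95%, exact 95% interval 1.61 to 2.35) and 40 cells in replicate 2 (0.951%, 0.680 to 1.29). The other gates of the comparison held 3934 and 3007 cells in 12 gates of the nephron, collecting system, vessels, stroma and erythroid lineage. Levels are given as CPM, the counts of a gene per 1000000 UMIs summed over the cells of a gate, with exact 95% intervals that cover counting error only.

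The name of the macrophage gate was checked against genes that did not define it. All 24 tested genes of a macrophage identity list were higher in the gate than in the mean of the other 12 gates (edgeR, adjusted p under 0.05), among them Adgre1, which encodes F4/80, at 422 and 483 CPM. The background was large, since 23.1% of all 17000 adjusted genes were higher and 13.1% lower in this comparison. Panels of other cells summed to far less than the macrophage panel in the gate, but part of this follows from the gate rule. The macrophage panel genes defined the gate, so its high sum was set in advance. Macrophages that reached the gate threshold on a kidney or erythroid panel were left out. Low sums of those panels were therefore also set in advance and do not check the name of the gate. The neutrophil panel was the highest of them in replicate 1, at 248 CPM, and stood at 78.6 CPM in replicate 2, where the B, stroma and mural panels reached 107, 88.8 and 85.4 CPM. The T or NK panel had 0 counts in both libraries, the nephron progenitor panel summed to 11.2 and 13.7 CPM and the erythroid panel to 0 and 3.42 CPM, while the macrophage panel summed to 11010 and 10059 CPM. Of the B cell panel, Cd79a and Ms4a1 had 0 counts and Cd79b stood at 67.7 and 52.4 CPM. The monocyte panel summed to 81.8 and 82.0 CPM.

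Of the 10 members, 6 were higher in macrophages (Csf1r, Cx3cr1, Mrc1, F13a1, Pf4 and Cd74) and none lower, against the background of 23.1% and 13.1%. Csf1, Il34, H2-Aa and H2-Ab1 did not pass the test. The median log2 difference of the members was 7.17, and over all tested genes it was -0.0066. Fitted differences against the mean of the other gates are large wherever a gate has no count, so the levels in each library are given first and ratios between single gates beside them.

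The ligands were counted almost entirely outside the macrophages, and their highest levels lay in different gates. Csf1 (ENSMUSG00000014599, chromosome 3, 107741048 to 107760469, GRCm38) stood at 19.98 CPM (17.6 to 22.6) and 16.7 CPM (14.4 to 19.2) in endothelium. It stood at 19.1 and 12.2 CPM in stroma and at 11.6 and 15.4 CPM in mural cells, the pericytes and smooth muscle of the vessel wall. Every other gate lay at or below 5.66 CPM in both libraries, so the endothelial, stromal and mural levels did not overlap with the rest. Stroma overlapped with endothelium and with mural cells, while endothelium lay above mural cells in both libraries. Macrophages had 2 Csf1 counts in replicate 1, 1.49 CPM (0.180 to 5.37), and 0 in replicate 2, where 3 counts would be 3.42 CPM. Csf1 was higher than in the mean of the other gates in exactly 3 gates. The log2 difference was 3.37 in endothelium (SE 0.29, edgeR adjusted p 6.45e-09), 3.08 in stroma (SE 0.34, adjusted p 3.35e-07) and 2.90 in mural cells (SE 0.38, adjusted p 3.42e-06). Of all genes, 31.3%, 29.4% and 27.2% were higher in these gates. Endothelium was 12.6% and 14.4% of the kept cells and held 27.5% and 24.9% of all Csf1 UMIs in kept cells.

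Il34 (ENSMUSG00000031750, chromosome 8, 110741829 to 110805924) was instead highest in the loop of Henle, followed by the intercalated gate and the ureteric and collecting duct gate. The loop of Henle held the most, 37.7 CPM (34.1 to 41.4) and 27.3 CPM (24.4 to 30.3). Intercalated cells, the acid-base handling cells of the collecting duct, had 13.7 and 15.4 CPM and the ureteric and collecting duct gate 14.8 and 13.4 CPM. Early nephron cells followed with 8.97 and 6.52 CPM and podocytes, the filter cells of the glomerulus, with 5.47 and 7.22 CPM. The loop of Henle did not overlap with any other gate, the intercalated and ureteric gates overlapped with each other, and so did early nephron cells and podocytes. Il34 was higher in these 5 gates and in no other. The log2 difference was 4.66 in the loop of Henle (SE 0.25, edgeR adjusted p 2.25e-11), where 26.1% of all genes were higher. It was 3.44 in intercalated cells (adjusted p 5.66e-05, 19.1% of all genes higher) and 3.19 in the ureteric and collecting duct gate (adjusted p 3.67e-07, 23.7%). It was 2.31 in early nephron cells (adjusted p 1.82e-04, 32.8%) and 2.11 in podocytes (adjusted p 0.00617, 27.3%). The podocyte call was lost, at an adjusted p of 0.0831, when macrophages were defined by 1 C1qa UMI alone, and at 0.0772 when macrophages with a kidney or erythroid panel were kept. Other tubule gates held little Il34, with 1.08 and 2.66 CPM in proximal tubule cells and 3.93 and 1.84 CPM in the distal and connecting tubule gate. Mural cells, by comparison, had 2.38 and 4.95 CPM.

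The gate richest in each ligand held little of the other, while gates with intermediate levels held both, such as podocytes, early nephron cells and the ureteric and collecting duct gate, where Csf1 stood at 3.89 and 4.43 CPM. Endothelium, the gate with the highest mean Csf1, had 0.562 and 0.339 CPM of Il34, from 7 and 4 counts. The loop of Henle, the gate with the most Il34, had 1.35 and 1.70 CPM of Csf1. No Il34 UMI was found in any macrophage of either library. Against 3 counts per library, Il34 was at least 16.9-fold higher in the loop of Henle than in macrophages in replicate 1 and at least 7.98-fold higher in replicate 2. Neither ligand gene was evenly spread over cells: 111 of 258 and 129 of 326 loop of Henle cells had an Il34 UMI, with up to 23 and 12 UMIs in a cell. In endothelium 147 of 698 and 131 of 604 cells had a Csf1 UMI.

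**Figure D1:**
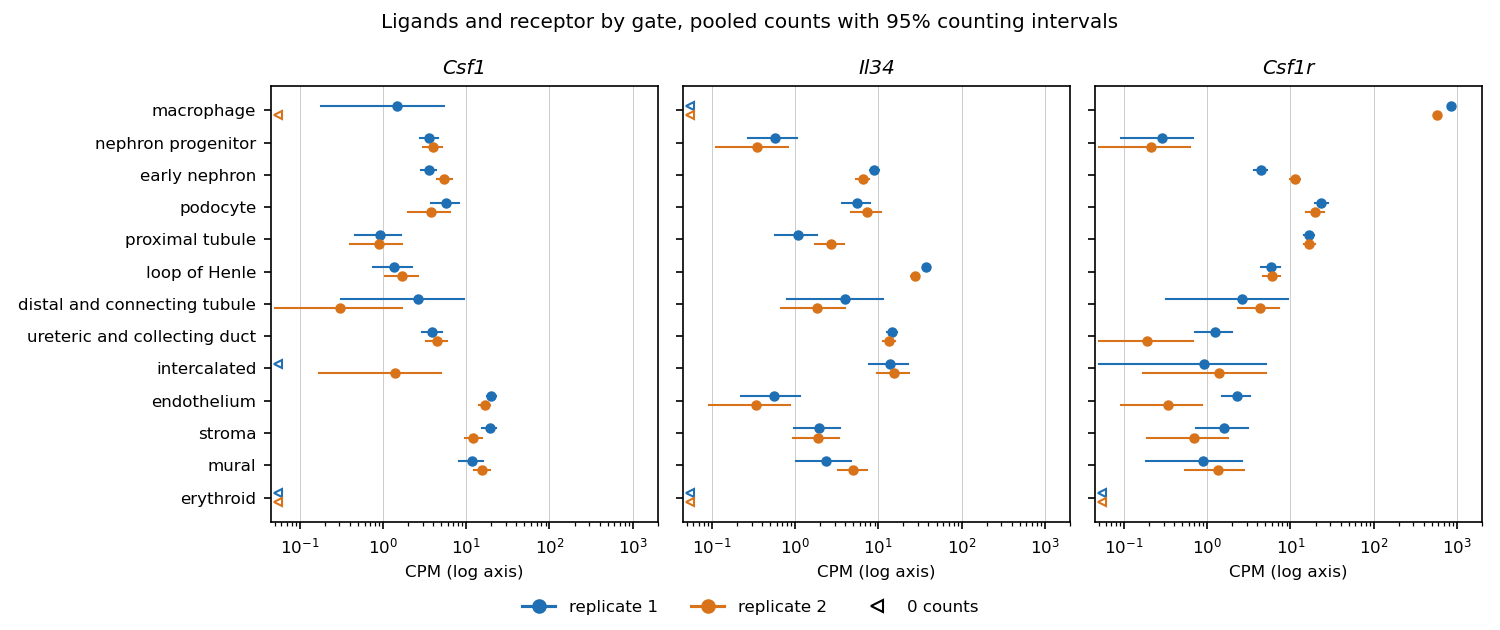
Levels of the ligands Csf1 and Il34 and of their receptor Csf1r in 13 gates, as CPM on a log axis, with 1 point per library and exact 95% counting intervals cut at the axis limit. Open triangles mark gates with 0 counts. Csf1 peaks in endothelium, stroma and mural cells, Il34 in the loop of Henle, and Csf1r in macrophages at 849 and 581 CPM.

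The receptor gene Csf1r (ENSMUSG00000024621, chromosome 18) stood at 849 CPM (801 to 900) and 581 CPM (531 to 633) in macrophages and was higher there by a log2 difference of 8.72 (SE 0.24, edgeR adjusted p 2.10e-16). It was counted in 105 of 108 and 35 of 40 macrophages. A second, much lower level was found in epithelium. Podocytes had 23.4 CPM (19.5 to 27.9) and 19.9 CPM (15.5 to 25.2), and proximal tubule cells had 16.7 CPM (14.5 to 19.2) and 16.9 CPM (14.4 to 19.6), each above every gate of lower rank in both libraries. These gates were called higher as well, podocytes by 3.30 (SE 0.47, edgeR adjusted p 8.40e-06) and proximal tubule by 3.09 (SE 0.43, adjusted p 4.13e-06, where 31.9% of all genes were higher). Macrophages exceeded podocytes 36.3-fold (30.1 to 44.03) and 29.1-fold (22.6 to 38.05), and proximal tubule cells 50.7-fold and 34.4-fold. Csf1r was seen in 79 of 332 and 40 of 172 podocytes, with at most 9 and 10 UMIs in a cell. Nephron progenitors, by comparison, had 5 and 3 counts, 0.286 and 0.210 CPM. C1qa was counted at 0.571 and 0.350 CPM in nephron progenitors and at 0.0829 and 0.395 CPM in proximal tubule cells, against 2897 and 2267 CPM in macrophages. The gate rule kept cells with at least 2 C1qa UMIs out of every other gate, so low C1qa there was set in advance. The span of Csf1r overlaps Hmgxb3 on the other strand and that of Cx3cr1 overlaps 9 genes on both strands, and since no strand setting of the counting is given in the sources used here, reads in shared stretches cannot be told apart.

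Cx3cr1, Mrc1, F13a1 and Pf4 were concentrated in the macrophage gate. Cx3cr1, the receptor of the chemokine fractalkine (ENSMUSG00000052336, chromosome 9, 119901616 to 120069879), had 1143 CPM (1087 to 1202) and 707 CPM (653 to 765) in macrophages. Mrc1, the mannose receptor CD206 (ENSMUSG00000026712, chromosome 2, 14229392 to 14332057), had 2821 and 2733 CPM. F13a1, the A subunit of coagulation factor XIII (ENSMUSG00000039109, chromosome 13, 36867178 to 37050244), had 2099 and 1098 CPM. Pf4, a chemokine also named platelet factor 4 (ENSMUSG00000029373, chromosome 5, 90772435 to 90773383), had 3923 and 3194 CPM. Replicate 1 was above replicate 2 for each of them, by least for Mrc1.

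All 4 were higher in macrophages. The log2 difference was 9.67 for Cx3cr1 (SE 0.13, edgeR adjusted p 5.28e-21) and 11.31 for Mrc1 (SE 0.12, adjusted p 2.25e-23). It was 12.58 for F13a1 (SE 0.15, adjusted p 5.13e-21) and 12.84 for Pf4 (SE 0.12, adjusted p 7.92e-23). Macrophages held 82.5% and 90.9% of all Mrc1 UMIs in kept cells, 84.2% and 79.8% of Pf4, 76.5% and 65.5% of Cx3cr1, and 75.2% and 67.9% of F13a1. They held 56.0% and 39.8% of Csf1r, the lowest share of the 5.

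Below the macrophages the order of the gates differed by gene. Endothelium was second for Cx3cr1, at 7.86 CPM (6.38 to 9.58) and 7.20 CPM (5.75 to 8.90), and was called higher by 2.21 (SE 0.32, edgeR adjusted p 1.03e-05), although the adjusted p was 0.226 after free RNA was subtracted. Endothelium was second for Pf4 too, at 23.9 and 13.97 CPM, called higher by 4.64 (adjusted p 3.40e-12), with 132 of 698 and 88 of 604 cells positive and up to 42 and 15 UMIs in a cell. The adjusted p reached 0.0325 among the alternatives. Free RNA was taken as 60.3% and 25.2% of endothelial UMIs and held Pf4 at 80.4 and 39.3 CPM. In replicate 1 the subtracted amount exceeded the endothelial Pf4 counts. Mural cells had 4.76 and 4.57 CPM of Pf4 and were called higher by 2.505 (adjusted p 3.44e-04), a call that was lost at a doubled gate threshold (adjusted p 0.637) and turned to -2.69 after subtraction of free RNA. Platelet genes in endothelium were Itga2b at 10.4 and 6.94 CPM, Gp9 at 1.44 and 0.508 CPM and Ppbp at 1.04 and 0.169 CPM, and their part in the endothelial Pf4 was not tested. Itga2b was also counted at 23.04 and 21.8 CPM in the ureteric and collecting duct gate.

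Mrc1 was at or below 2.47 CPM and F13a1 at or below 1.36 CPM in endothelium, stroma and mural cells. Mrc1 was the member called lower in the most gates, 6 of 13, against a mean of the other gates that includes the macrophages. It was lower in stroma (-1.83, edgeR adjusted p 0.0113), where 12.1% of all genes were lower, and in proximal tubule cells (-2.20, adjusted p 0.00133, 13.6% of all genes lower). It was lower in early nephron cells (-2.33, adjusted p 3.81e-04, 10.7%), nephron progenitors (-1.70, adjusted p 0.00267, 13.9%), the loop of Henle (-1.29, adjusted p 0.0199, 10.2%) and the ureteric and collecting duct gate (-1.30, adjusted p 0.0185, 8.18%). Several of these differences were small in replicate 1 alone, at -0.24 in stroma, -0.046 in nephron progenitors, -0.16 in the ureteric and collecting duct gate and -0.56 in early nephron cells. In replicate 2 alone they were -2.31, -2.36, -1.21 and -3.29.

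F13a1 was also high in the monocyte gate, 18 and 19 cells defined by a panel of monocyte markers such as Ly6c2 and Ccr2 and too few for the test. It stood there at 1392 CPM (1211 to 1593) and 1526 CPM (1378 to 1685), between the macrophage values of the libraries. Pf4 in monocytes was 46.0 and 110 CPM, Csf1r 204 and 396 CPM, and Cx3cr1 98.5 and 310 CPM. Mrc1 had 0 counts in the monocytes of replicate 1 and 255 CPM in those of replicate 2. Monocytes had no Il34 count, and 2 and 6 Csf1 counts.

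Single macrophages mostly held the whole set. Csf1r, Cx3cr1, Mrc1, F13a1 and Pf4 were all counted in 86 of 108 macrophages of replicate 1 and in 26 of 40 of replicate 2, and at least 4 of them in 100 and 35. The medians per cell were 776 and 546 CPM for Csf1r, 1074 and 586 for Cx3cr1, 2110 and 1953 for Mrc1, 1029 and 789 for F13a1, and 2651 and 3308 for Pf4. The quartiles of F13a1 were 317 and 2763 CPM in replicate 1 and 151 and 1914 CPM in replicate 2, the widest ratio of quartiles among the 5 in either library, and its UMIs were found in 94 and 33 cells. Across the cells of a library, F13a1 and Mrc1 went together with a Spearman rho of 0.75 (108 cells) and 0.46 (40 cells), and F13a1 and Pf4 with 0.65 and 0.53. Cx3cr1 and F13a1 had a rho of -0.05 and -0.03. These are descriptions, since cells of 1 library share its depth and its free RNA.

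**Figure D2:**
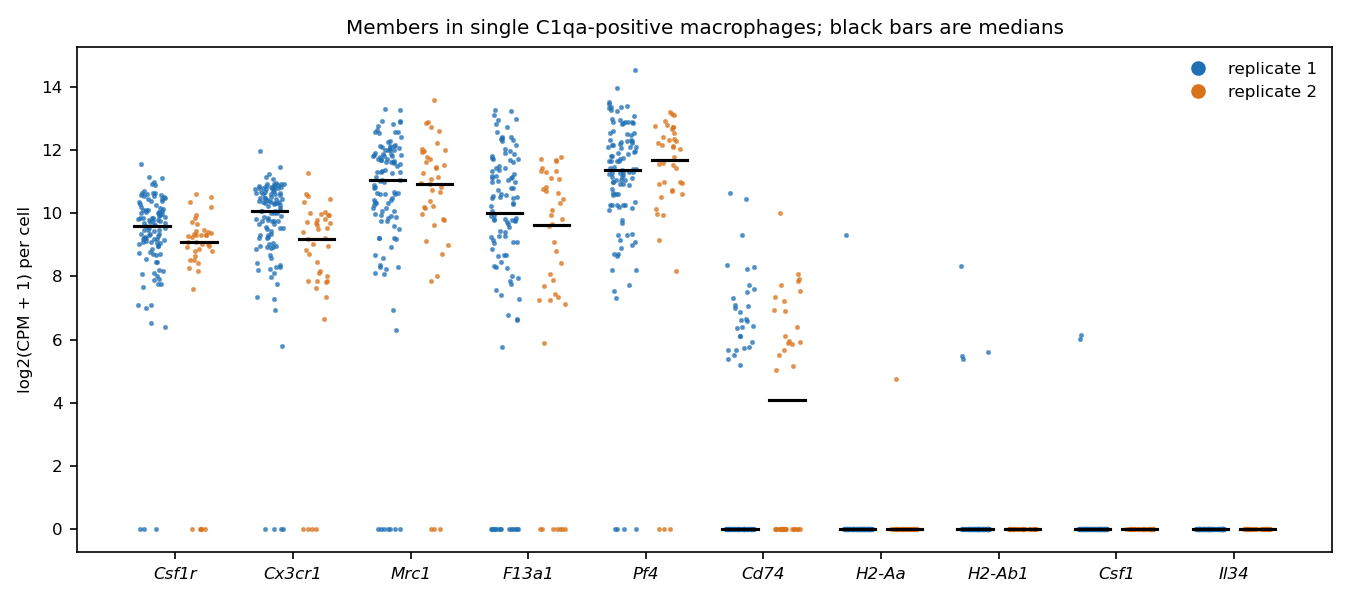
The 10 members in single C1qa-positive macrophages, as log2(CPM + 1) per cell, with 1 point per cell, colours for the libraries and black bars for medians. The first 5 genes are counted in nearly all cells, Cd74 in 30 of 108 and 20 of 40, and H2-Aa, H2-Ab1, Csf1 and Il34 in 4 or fewer cells of a library.

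The wider lists were read against the 23.1% of all genes that were higher in macrophages. All 16 tested genes of a resident macrophage list, which includes the members Mrc1, F13a1 and Pf4, were higher, with a median log2 difference of 9.92. Cd163, a scavenger receptor of haemoglobin, stood at 310 and 265 CPM, and Lyve1, a hyaluronan receptor, at 711 and 123 CPM. Timd4 did not pass the filter, with 24 counts in replicate 1 and 1 in replicate 2. Of a microglial list, 5 of 7 tested genes were higher, among them P2ry12 at 126 and 113 CPM and Tmem119 at 13.4 and 22.8 CPM (9.31 and 14.9 CPM in endothelium), while Sall1 and Sparc were lower. Of a ligand and receptor list, 7 of 15 were higher, among them Csf1r, Cx3cr1, Cd74, the CD74 co-receptor Cd44 and Tgfb1, and Sdc1 was lower. Ptprz1, a second receptor of IL-34, had 0 counts in macrophages and 9.65 and 13.2 CPM in the ureteric and collecting duct gate. Cx3cl1, the ligand of CX3CR1, stood at 15.3 and 6.86 CPM in endothelium and had 1 and 0 counts in macrophages. Of a platelet list, 1 of 4 tested genes was higher, a share near that of all genes; it was Ppbp, at 11.9 and 7.97 CPM, while Gp9 had 0 counts and Itga2b 0 and 3 counts in the gate. All 5 genes of a proliferation list were higher, Mki67 at 330 and 412 CPM.

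Among the class II genes, macrophages carried Cd74 but almost no alpha or beta chain. Cd74, the invariant chain (ENSMUSG00000024610, chromosome 18), stood at 42.4 CPM (32.1 to 54.9) and 108 CPM (87.5 to 132) in macrophages, above every other gate of the fit, and was called higher by 5.62 (SE 0.39, edgeR adjusted p 2.00e-10). Its UMIs were unevenly spread. In replicate 2, 5 of 40 cells held 72.6% of them, and in replicate 1, 5 of 108 cells held 47.4%. H2-Aa, the alpha chain of the I-A molecule (ENSMUSG00000036594, chromosome 17, 34282744 to 34287823), had 2 and 1 counts in macrophages. H2-Ab1, its beta chain (ENSMUSG00000073421, chromosome 17, 34257689 to 34269419), had 4 and 0 counts. Only 4 of 108 and 1 of 40 macrophages had a UMI of either chain.

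The highest alpha and beta chain levels among the gates of the fit lay in nephron progenitors, proximal tubule cells and early nephron cells. Nephron progenitors, the Six2 and Cited1 cells that form the nephrons, had 18.3 CPM (16.4 to 20.5) and 11.2 CPM (9.53 to 13.1) of H2-Aa, above every other gate of the fit in both libraries. They had 30.4 and 15.1 CPM of H2-Ab1 and 22.4 and 9.86 CPM of Cd74. Proximal tubule cells had 2.57 and 5.03 CPM of H2-Aa, 23.1 and 15.4 CPM of H2-Ab1 and 11.4 and 5.72 CPM of Cd74. Early nephron cells had 2.58 and 1.88 CPM of H2-Aa and 23.6 and 9.45 CPM of H2-Ab1, with 2.17 and 2.21 CPM of Cd74. For H2-Ab1 these 3 gates overlapped with one another and with no other gate. Podocytes, also cells of the nephron, had no H2-Aa count, 12 and 3 counts of H2-Ab1 and 2 and 0 of Cd74. Cd74 was lower in podocytes (-3.38, edgeR adjusted p 0.0246, where 14.3% of all genes were lower), in the ureteric and collecting duct gate (-2.42, adjusted p 0.0204) and in endothelium (-1.97, adjusted p 0.0343, where 12.1% were lower).

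All 3 class II members were higher in nephron progenitors, by 6.40 for H2-Aa (SE 0.47, edgeR adjusted p 1.00e-08), 4.13 for H2-Ab1 (SE 0.30, adjusted p 1.37e-09) and 3.15 for Cd74 (SE 0.33, adjusted p 1.10e-07). Of all genes, 33.8% were higher in this gate. All 3 were higher in the proximal tubule as well, by 4.55, 4.17 and 2.42 (edgeR adjusted p 2.15e-05, 8.88e-10 and 1.63e-05). In early nephron cells H2-Aa (3.36, adjusted p 0.00155) and H2-Ab1 (3.47, adjusted p 3.97e-08) were higher, and Cd74 differed by -0.03 without passing the test. The H2-Aa call in early nephron cells was lost after subtraction of free RNA (adjusted p 0.0868).

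Macrophages were also set directly against nephron progenitors, a comparison added after these values had been seen, in which 21.0% of all genes were higher and 25.3% lower. H2-Aa fell by 3.43 on the log2 scale (edgeR adjusted p 0.00443) and H2-Ab1 by 3.79 (adjusted p 2.59e-04), whereas Cd74 was higher by 2.28 (adjusted p 1.26e-04). The size of the Cd74 difference depended on the library. Macrophages exceeded nephron progenitors 1.89-fold (1.40 to 2.498) in replicate 1 and 11.0-fold (8.36 to 14.3) in replicate 2. H2-Ab1 was 10.2-fold higher in nephron progenitors than in macrophages (3.97 to 37.7) in replicate 1 and at least 4.42-fold higher in replicate 2.

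**Figure D3:**
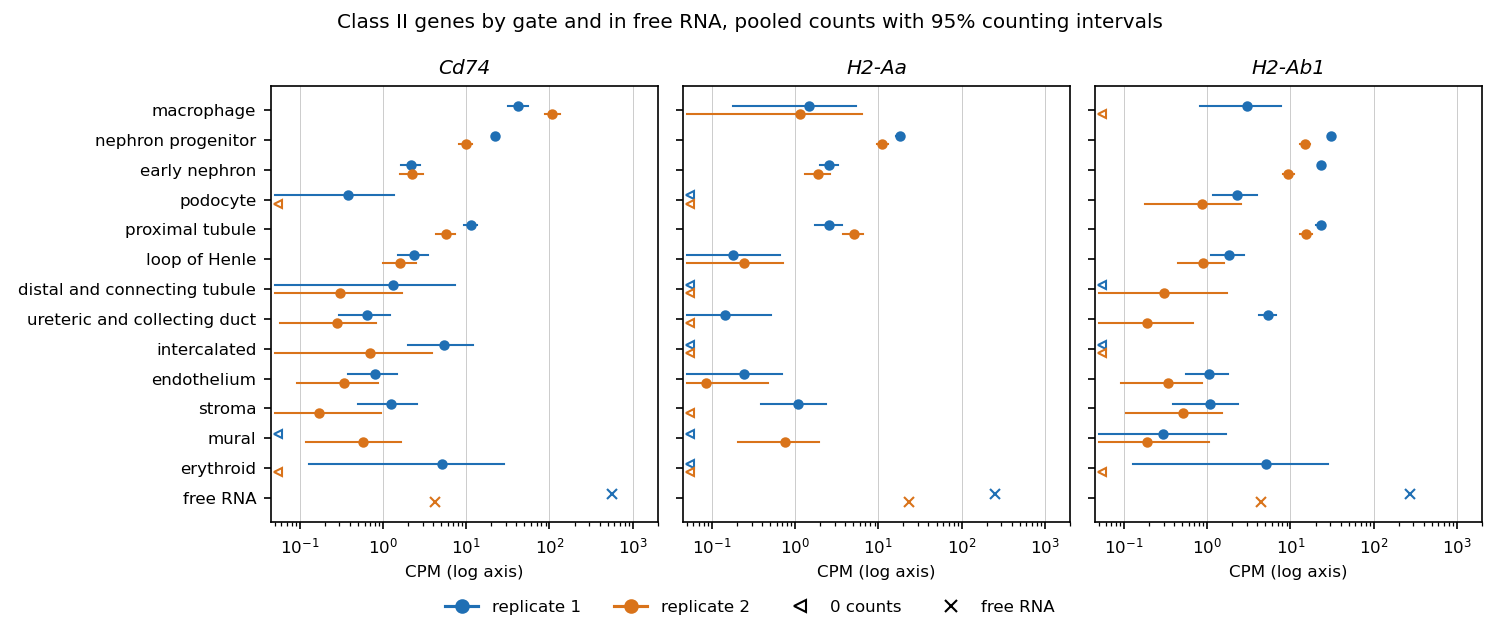
Cd74, H2-Aa and H2-Ab1 in 13 gates and in free RNA (crosses, barcodes of at most 100 UMIs), as CPM on a log axis, with 1 point per library, exact 95% counting intervals cut at the axis limit and open triangles for 0 counts. Cd74 is highest in macrophages, H2-Aa in nephron progenitors, and free RNA lies above all gates for all 3 genes in replicate 1.

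Free RNA held the class II genes at very different levels in the libraries. In barcodes of at most 100 UMIs, Cd74, H2-Aa and H2-Ab1 stood at 572, 249 and 276 CPM in replicate 1 and at 4.17, 23.1 and 4.42 CPM in replicate 2. The share of cells with a class II UMI differed widely between gates. A UMI of any of the 3 genes was found in 53.5% and 43.0% of nephron progenitors (median depths 18594 and 25406 UMIs) and in 4.22% and 0.581% of podocytes (8967.5 and 13479.5 UMIs). It was found in 3.15% and 1.49% of endothelial cells (10836 and 13185.5 UMIs) and in 1.002% and 1.05% of stromal cells. With every cell thinned to 3000 UMIs, the shares were 16.1% and 9.18% in nephron progenitors, 0.888% and 0.0265% in podocytes and 0.565% and 0.186% in endothelium. Macrophages had such a UMI in 29.6% (21.2 to 39.2) and 50% (33.8 to 66.2) of cells, and after thinning in 11.6% and 17.1%. The 3 class II members remained called in nephron progenitors after subtraction of free RNA (adjusted p 0.00966 for H2-Aa, 0.00417 for H2-Ab1 and 0.00108 for Cd74). The subtraction took 10.9% of nephron progenitor UMIs as free RNA in replicate 1 and 2.60% in replicate 2. In replicate 1 the subtracted amount exceeded the gate's Cd74 and H2-Aa counts and left almost no H2-Ab1, so these calls rest on replicate 2. The Cd74 call in macrophages after subtraction likewise rests on replicate 2. So do the 3 calls in proximal tubule cells, where 10.1% of UMIs were taken as free RNA in replicate 1. The subtraction took 14.8% of podocyte and 60.3% of endothelial UMIs in replicate 1. Yet these gates held Cd74 at only 0.378 and 0.803 CPM, against 572 CPM in free RNA. For Cd74 the subtracted amount therefore far exceeded their counts, and how well this scaling fits the class II genes was not tested.

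The class II genes occurred together within nephron progenitors and proximal tubule cells. At least 2 of the 3 genes were counted in 29.3% and 21.4% of nephron progenitors and in 22.4% and 19.3% of proximal tubule cells. The shares were 8.59% and 5.23% in early nephron cells and 1.85% and 2.5% in macrophages. Macrophages had almost no alpha or beta chain UMI, so few could hold 2 of the genes. These shares were not thinned to a common depth. Cd74 was counted in 46.8% and 49.0% of the nephron progenitors with an H2-Ab1 UMI and in 11.9% and 6.87% of the others, whose median depth was lower (16713 against 27475 UMIs in replicate 1 and 23752 against 33817.5 in replicate 2). In proximal tubule cells Cd74 was counted in 38.4% and 32.5% of those with an H2-Ab1 UMI and in 8.78% and 8.46% of the others. Median depth was again lower in the others (25934 against 46545 UMIs in replicate 1 and 36499.5 against 51146 in replicate 2). In nephron progenitors the 10 cells with the most class II UMIs held 18.2% and 27.9% of them. In nephron progenitors, where the gate rule left out cells with at least 2 C1qa UMIs, the macrophage panel summed to 2.34 and 2.03 CPM. Cd79a, Ms4a1, Flt3, Xcr1 and Clec9a each stood at or below 0.280 CPM in this gate. The whole dendritic panel summed to 63.7 and 61.6 CPM there, of which Zbtb46 gave 63.7 and 61.2 CPM, and the whole B panel to 21.2 CPM in both libraries, of which Ebf1 gave 18.8 and 17.8 CPM. Their part in the class II counts was not tested.

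**Figure D4:**
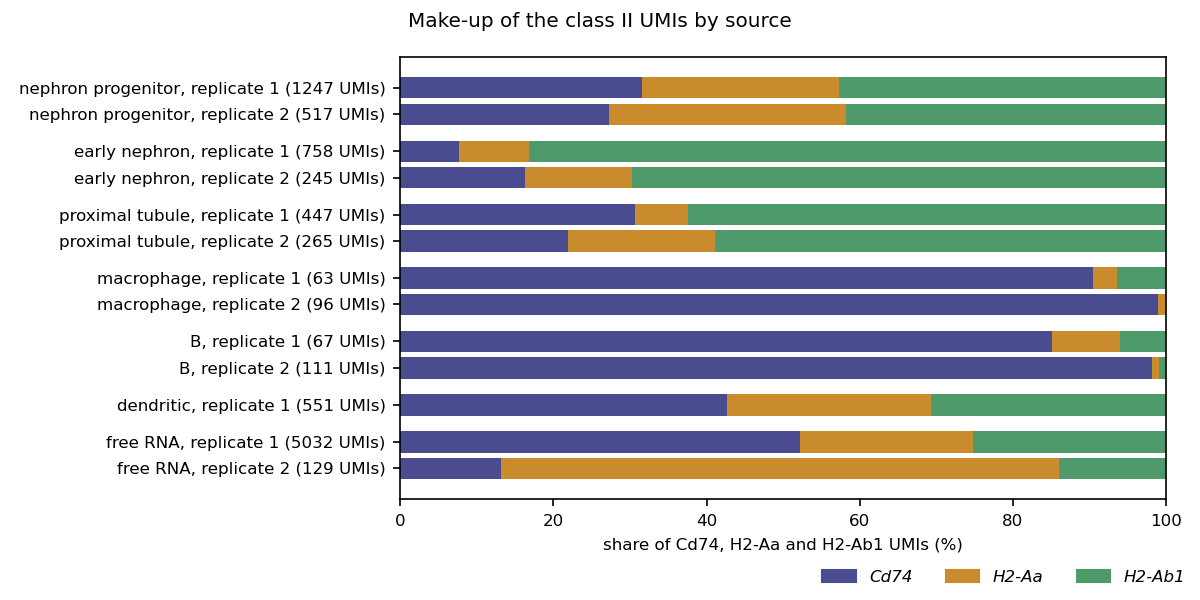
Shares of Cd74, H2-Aa and H2-Ab1 among the UMIs of these 3 genes, by source and library, with the number of UMIs in brackets. In macrophages 90.5% and 99.0% of the UMIs are Cd74; in nephron progenitors 31.5% and 27.3% are Cd74 and 42.7% and 41.8% are H2-Ab1.

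The make-up of the class II UMIs differed between macrophages and the nephron progenitor, early nephron and proximal tubule gates. Cd74 was 90.5% and 99.0% of the 63 and 96 class II UMIs of macrophages, and 31.5% and 27.3% of the 1247 and 517 of nephron progenitors. H2-Ab1 was 83.2% and 69.8% in early nephron cells and 62.4% and 58.9% in proximal tubule cells. Free RNA differed from all of these and between the libraries, with 52.1% and 13.2% Cd74 and 22.7% and 72.9% H2-Aa. Professional antigen-presenting cells were very few. The 2 dendritic cells of replicate 1 held 9849 CPM of Cd74, 6161 of H2-Aa and 7083 of H2-Ab1, and these 2 cells carried 18.8% of all H2-Aa UMIs in kept cells of that library. The 2 and 3 B cells held 2932 and 2525 CPM of Cd74, and Cd74 was 85.1% and 98.2% of their class II UMIs, close to its share in macrophages.

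Of the class II list, 9 of 18 tested genes were higher in macrophages and none lower, against 23.1% and 13.1% of all genes, with a median of 2.40. They were Cd74, the peptide-loading genes H2-DMa (69.2 and 54.7 CPM) and H2-DMb1 (12.6 and 6.83 CPM), the costimulatory genes Cd80 and Cd86, the lysosomal processing genes Ctss, Lgmn and Ifi30, and March1, whose product removes class II from the cell surface. Ciita, the class II coactivator, had 0 counts in macrophages, and H2-Eb1, the beta chain of I-E, had 1 count in each library. In nephron progenitors 8 of 18 were higher and 1, Lgmn, lower, against 33.8% and 13.9% of all genes, with a median of 0.60 against 0.30 over all genes. The 18 include the 3 members, all higher in this gate, and outside them the share called higher was close to that of all genes. In early nephron cells 6 of 18 were higher, a share close to the 32.8% of all genes. The 8 were the 3 members with Ciita (3.26 and 2.17 CPM, log2 difference 4.17, adjusted p 2.57e-05), H2-Eb1 (24.04 and 14.8 CPM, 2.98, adjusted p 5.22e-10), H2-DMb1 (2.49), Rfx5 (1.35) and H2-DMa (0.72). In the proximal tubule, where Ciita stood at 5.14 and 2.76 CPM, 10 were higher and none lower, against 31.9% and 13.6% of all genes. Of the class I list, all 12 tested genes were higher in macrophages, B2m at 1101 and 674 CPM and H2-K1 at 263 and 83.1 CPM. In nephron progenitors none of the 12 was higher and 5 were lower, H2-D1 among them at 3.20 and 3.85 CPM against 477 and 278 CPM in macrophages.

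**Figure D5:**
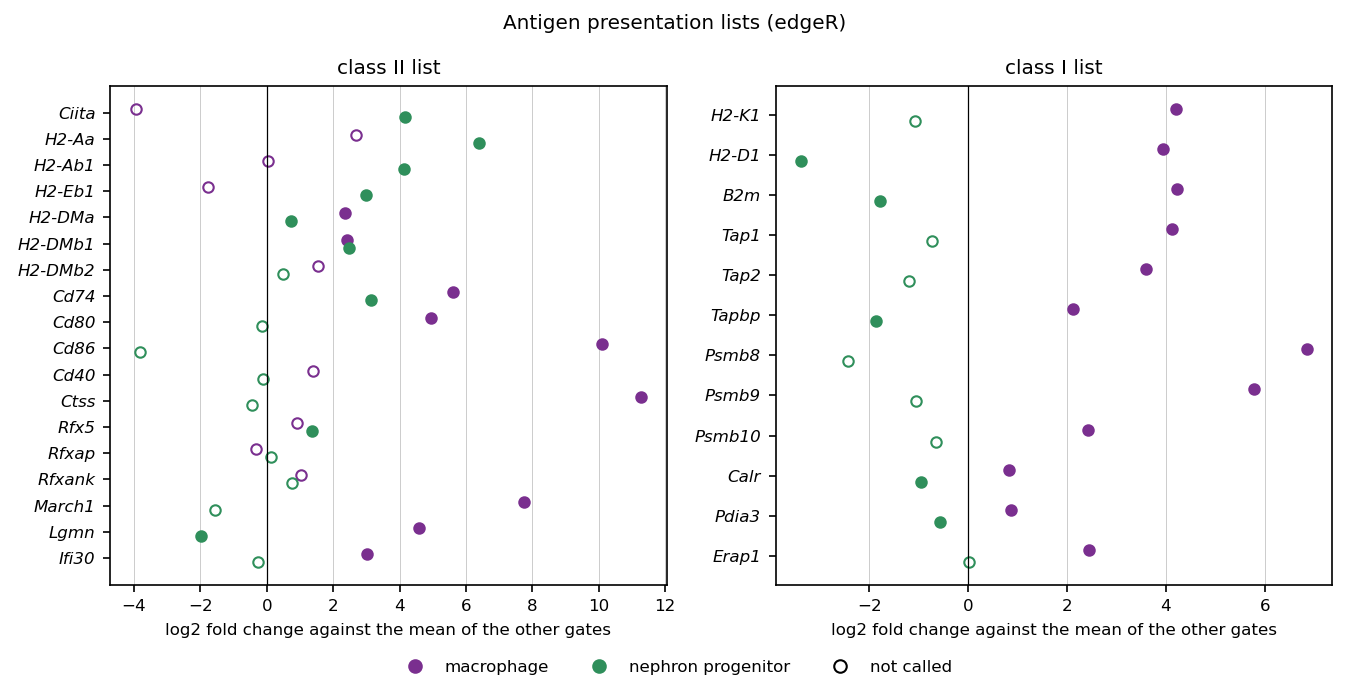
Log2 differences of the class II list (left) and the class I list (right) in macrophages and in nephron progenitors, each against the mean of the other gates; filled points passed the edgeR test and open points did not. Ciita, H2-Aa, H2-Ab1 and H2-Eb1 are filled for nephron progenitors and open for macrophages, and all 12 class I genes are filled and above 0 for macrophages.

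Sequences upstream of the start were available for 6 of the 10 members in the RefSeq table of GRCm38.p6 promoters, and 2 are shown. Against the mean of the other gates, H2-Aa had the largest log2 difference of the members in nephron progenitors (6.40) and Pf4 in macrophages (12.84). Each is the 120 bases before the start, 5′ to 3′ on the gene's strand, H2-Aa from chr17:34287824-34287943 (minus strand) and Pf4 from chr5:90772315-90772434 (plus strand). Capitals in H2-Aa mark the letters TGACGTCA of the X2 box and ATTGG of the Y box, elements known from class II promoters, and capitals in Pf4 mark ATTGG read on the other strand (CCAAT) and the Ets core AGGAAGT read on the other strand (ACTTCCT), a core of sites of the macrophage factor PU.1.
H2-Aa: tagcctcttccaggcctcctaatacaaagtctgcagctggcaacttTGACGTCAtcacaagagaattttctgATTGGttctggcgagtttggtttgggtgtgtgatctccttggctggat
Pf4: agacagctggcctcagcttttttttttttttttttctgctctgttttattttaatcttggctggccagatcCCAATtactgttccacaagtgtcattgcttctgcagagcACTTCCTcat
The search covered both strands of 300 bases, 250 before the start and 50 after it. Among all 32851 such windows, 1.79% held TGACGTCA, 37.4% held ATTGG and 0.642% held both, and 9.35% held AGGAAGT. In H2-Aa the X2 letters begin 74 bases and the Y letters 48 bases before the start. The Ets core was also found in the windows of Mrc1 and of 1 of the 2 F13a1 starts, and not in those of Csf1, Cx3cr1 and H2-Aa. A match is a run of letters, not a measured binding site.

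Genes whose levels followed a member most closely were named by Pearson's r of log2(CPM + 1) over the 26 gate and library values, which share their libraries. For Csf1 they were Pcdhb22 (0.92), Mex3b (0.91) and Cavin3 (0.91), and for Il34 Bmp3 (0.90), Gm12536 (0.86) and Ranbp3l (0.85). Csf1r had Pstpip2 (0.92), Cd300a (0.90) and Lat2 (0.88). Cx3cr1 was closest to Ctss (0.98), Ptpn7 (0.98) and Pf4 itself (0.98), Mrc1 to Bcl2a1d, Ms4a4a and Tmem156 (each 0.99), F13a1 to Adgre1, Evi2a and Vav1 (each 0.99), and Pf4 to Ptpn7, Msr1 and Tnf (each 0.98). Cd74 had Kcnab2 (0.89), Dock2 (0.83) and 1600014C10Rik (0.82). For H2-Aa they were Crym (0.89), Gm14964 (0.88) and Fgf10 (0.86), and for H2-Ab1 C330021F23Rik (0.88), Defb36 (0.87) and 4930405D11Rik (0.84), so that none of the first 3 genes of either chain was another class II gene.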

How the data were processed

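Chromium single-cell libraries of whole kidney were deposited by the authors as raw UMI counts per gene and barcode for all barcodes. The file headers name Cell Ranger 4 and the submitters' processing notes name Cell Ranger 6.0.1 and the build mm10, which could not be reconciled; the steps before the counts are otherwise not given in the sources used here. Replicates 1 and 2 held 2761081 and 2545815 barcodes. No column was left unmapped.

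Cells were gated from 19 marker panels of 93 genes. A panel's CPM was divided by its 90th percentile among cells with at least 2 panel genes. A cell entered the gate of its top score if that was at least 0.25 and the second score was below 0.5 of it, and 6 blood gates also needed a Ptprc UMI. This scoring rule was chosen after seeing the data. Macrophages that also scored 0.25 on a kidney or erythroid panel (9 and 5 cells) were left out, no doublet caller was used for the main values, and 73.8% and 73.5% of cells were gated. Other cells with at least 2 C1qa UMIs entered no gate. Markers, members and lists were chosen with earlier results of these data known.

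Counts were summed per gate and library for the 13 gates with at least 20 cells in each library. They were tested with edgeR 4.0.16 (quasi-likelihood F test, two-sided, TMM, filterByExpr, library as a block, 12 residual degrees of freedom), each gate against the unweighted mean of the other gates, with Benjamini-Hochberg adjustment over 17000 genes outside the panels and a threshold of 0.05. Standard errors were derived from the fold change and the F statistic. Ratios between gates and levels have exact 95% intervals, a count of 0 is bounded by 3 counts, and intervals cover counting error only; in macrophages 3 counts are 2.23 and 3.42 CPM. Free RNA was read from barcodes of at most 100 UMIs and, as an alternative, subtracted from each gate after scaling to its haemoglobin counts.

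On simulated counts for the macrophage comparison (14839 genes tested), 56% of genes changed 2-fold, 82% of those changed 4-fold, 92% of 8-fold and 92% of 16-fold were recovered, and 0.0205% of unchanged genes were called. The changed genes, 50 for each fold, left out genes of low mean count, and all other genes were simulated level across the gates. In the data 23.1% of genes were higher and 13.1% lower in macrophages. The simulated rates therefore do not carry over to the data, nor to members at few counts. The alternatives were DESeq2 1.42.0 and its size factors, no count filter, no library block, other cell filters and C1qa rules, Scrublet (scanpy 1.11.5), doubled gates and other thinning; leaving out the erythroid gate and keeping mixed macrophages were added after seeing the data. Named genes are the members, list genes and the 3 genes most like each member. Coordinates are from GENCODE M21 on GRCm38.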

Additional observations from a re-analysis of the deposited data

Results flagged for a closer look

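Barcodes below the depth limit also held macrophage transcripts. Barcodes of 1000 to 3000 UMIs that met the C1qa rule, 41 in replicate 1 and 21 in replicate 2, entered only the alternative with a limit of 1000 UMIs, and 3 counts in their summed UMIs would be 42.0 and 68.2 CPM. In replicate 1 they held Csf1r at 308 CPM, Cx3cr1 at 322 CPM, Mrc1 at 769.7 CPM, F13a1 at 699.7 CPM and Pf4 at 3484 CPM. In replicate 2 they held Csf1r at 205 CPM, Cx3cr1 at 273 CPM, Mrc1 at 750.4 CPM, F13a1 at 591 CPM and Pf4 at 4093 CPM. Each lies above the limit that a count of 0 allows, which is why they are given. Neither Csf1 nor Il34 had a count in these barcodes in either library.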

How the results depend on the processing

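Single members were followed across the alternatives in macrophages and in the gates where they were called higher. Of these values, 476 kept their direction and, where a test was run, their side of the threshold. Another 11 changed sign, 5 lost and 3 gained a call. With 1 library left out only the direction was compared. The calls of Mrc1 and Cd74 as lower in other gates were not part of this count. The 6 members higher in macrophages were called higher under every alternative with a test. After free RNA subtraction, however, the Cd74 call rests on replicate 2. In replicate 1, 7.84% of macrophage UMIs were taken as free RNA, and the Cd74 subtracted exceeded the 57 Cd74 counts of the gate. H2-Ab1 in macrophages, never called, differed by 0.03 and turned to -0.35 with DESeq2, -0.074 without the count filter, -0.16 at 6000 UMIs, -0.77 at 10% mitochondrial UMIs, -0.032 with 1 C1qa UMI alone, -0.62 without Scrublet doublets and -4.05 after free RNA subtraction. With 1 library left out it ranged from -5.13 to 0.86, without a test, since no residual degrees of freedom remain. Il34 in macrophages (-7.31) became 0.50 with 1 C1qa UMI alone and 0.29 with mixed macrophages kept, both uncalled. It was called lower with DESeq2 (-4.46, adjusted p 0.00834), at 6000 UMIs (adjusted p 0.00483) and without the erythroid gate (adjusted p 0.00556). Pf4 in mural cells turned to -2.69 after free RNA subtraction. The platelet list had 0 genes higher in macrophages with DESeq2 and 2 with mixed macrophages kept, against 1. Any class II gene was found in 8.41% of macrophages thinned to 1500 UMIs against 14.3% at 3000, and with 1 library left out in 11.6% to 17.1%; the macrophage share of cells ranged from 0.951% to 1.95%. Higher genes were 63.7% of all macrophage calls, but 76.1% at 1000 UMIs (where a neutrophil gate entered the fit), 49.7% at 6000 UMIs (where the erythroid gate left it), 49.8% without the erythroid gate and 75.7% after free RNA subtraction; the median of all genes moved by -0.35 without the count filter and -0.25 without the erythroid gate. The causes were not tested. Depth limits what can be said of genes at few counts in the macrophage gate, which held 1344716 and 878155 UMIs. The fit pairs the gates of a library; without the library block 5828 genes were called against 6157.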
